A study of Mus musculus with 28 samples.

Results

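miR-191 and miR-425 are made from hairpins that lie close together on 1 transcript, and each hairpin can give a mature miRNA from its 5′ arm (5p) and from its 3′ arm (3p). The rows of these 4 mature miRNAs (miR-191-5p, miR-191-3p, miR-425-5p and miR-425-3p, named mmu-mir-191-5p, mmu-mir-191-3p, mmu-mir-425-5p and mmu-mir-425-3p in the tables) were taken by name from the small RNA tables of alveolar macrophages (AM), by a rule that uses no measured value. They are 4 of the 607 miRNAs listed in at least 1 of the 4 tables, and all 4 are among the 308 listed in every table. The mice were 12 weeks old and of both sexes. The co-ex mice were humanized transgenic mice that carried the human surfactant protein A variants SP-A1/SP-A2 (6A2/1A0) on a C57BL/6J background without mouse SP-A, and the KO mice lacked SP-A, so mouse SP-A was missing in all groups. Both were exposed for 3 h to filtered air (FA) or ozone (O3), and AM were collected by lavage after 4 h of recovery. There were 28 libraries in 8 groups, with 4 libraries per sex and exposure in co-ex and 3 in KO. The labels name SP-A variants and no wild-type group, the females were synchronized for the estrous cycle, and the labels and the paper state groups of 4 animals but tie no library to a single mouse. The p-values thus measure only the spread between these libraries, which may be technical, and in KO only 3 libraries stand for each group of 4.

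A miRNA hairpin is cut from its primary transcript by Drosha and from its loop by Dicer, after which usually 1 arm is kept in an Argonaute protein and the other is degraded. The kept strand pairs with target mRNAs mainly through its seed, the bases near its 5′ end, and lowers their stability and translation. miR-191 is abundant in blood cells and is often used as a reference miRNA in PCR because its level tends to be even across samples, and miR-425 is a less abundant partner studied in tumours and inflammation. Hairpins of 1 transcript share its transcription, but each is processed and its products decay on their own.

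The mature sequences, from RefSeq (GRCm38.p6), give the seeds of the 4 miRNAs. They are written 5′ to 3′ with bases 2 to 8, the seed, in capitals.
miR-191-5p: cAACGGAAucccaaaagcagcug
miR-191-3p: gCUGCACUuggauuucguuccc
miR-425-5p: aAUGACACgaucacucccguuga
miR-425-3p: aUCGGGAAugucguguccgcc
The 4 seeds all differ. Among 1738 mature mouse miRNAs in the same source, 1 other (miR-489-3p) has the seed of miR-425-5p, and the other 3 seeds were not found in a further miRNA. The lengths are 23, 22, 23 and 21 bases in the order given.

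The hairpin sequences show where the arms lie, and their positions show how the genes are placed. The mature arms are in capitals.
Mir191: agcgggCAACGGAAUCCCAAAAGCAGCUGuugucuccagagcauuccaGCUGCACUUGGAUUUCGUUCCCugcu
Mir425: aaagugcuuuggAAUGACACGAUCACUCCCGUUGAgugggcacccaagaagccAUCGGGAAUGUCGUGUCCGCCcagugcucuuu
Mir191 lies at chr9:108568319-108568392 and Mir425 at chr9:108568777-108568861, both on the + strand, with 384 bases between them. The 5p and 3p arms lie at chr9:108568325-108568347 and chr9:108568367-108568388 in Mir191, and at chr9:108568789-108568811 and chr9:108568830-108568850 in Mir425. Both hairpins lie within an exon of the lincRNA 4833445I07Rik (chr9:108567533-108569174, + strand). The annotated miRNA gene Gm24083 overlaps Mir191 on the other strand (chr9:108568295-108568414), and the sources used here do not state whether reads were counted by strand.

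The libraries held 41542 to 2082034 reads on miRNAs, with a median of 490152, and co-ex libraries were shallower (41542 to 891030) than KO libraries (111080 to 2082034). The deposited values are reads divided by a size factor, set for each table on its own, so they are called normalised values here and their levels are compared only within a table. Ratios of 2 miRNAs of 1 library are also compared across tables, since the size factor cancels except in the 1 added before taking logs, and 1 read was worth 0.346 to 4.31 units. Levels across tables are given in RPM, the reads of a miRNA per 1000000 reads on all miRNAs of the library. Of 8 myeloid miRNA names, 6 were listed, with none at 0 throughout a group, and they summed to 42505 to 223060 RPM, while 10 of 10 epithelial miRNAs summed to 1685 to 49828 RPM. Genotype coincided with the series of library codes. The labels do not state whether libraries of a series were prepared or sequenced together. Genotype thus cannot be told apart from anything else that differed between the series. Exposure also coincided in part with the order of the codes. In co-ex the FA libraries had the lower codes of each table and the O3 libraries the higher. In KO, FA replicates 2 and 3 of females and FA replicate 3 of males had codes far above those of the other KO libraries. The part of code order in the results was not tested. In bulk RNA, fewer cells of a type and less RNA per cell cannot be told apart.

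The 5p arms carried most of the signal, and miR-191-5p was the most abundant of the 4 in KO. In KO, miR-191-5p ranged from 10057 to 24763 RPM (median 15907) and held place 10 to 18 among the miRNAs of a library. In co-ex it ranged from 1492 to 15278 RPM (median 2938) and held place 19 to 68. The ranges of the genotypes overlapped only through co-ex males after FA, in which replicates 1 and 2 had 10653 and 15278 RPM and replicates 3 and 4 had 2769 and 6237 RPM. miR-425-5p had the opposite order, with 627 to 4533 RPM (median 1963) in co-ex and 602 to 986 RPM (median 711) in KO.

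The 3p arms were near the limit of detection in many libraries. miR-191-3p ranged from 0 to 120 RPM in co-ex and from 0 to 214 RPM in KO, and had 0 reads in 4 of 16 co-ex and 2 of 12 KO libraries. miR-425-3p ranged from 0 to 236 RPM in co-ex and from 29.2 to 128 RPM in KO, with 0 reads in 1 co-ex library. Where no read was seen, up to 3 may have been missed, a limit of 72.2 RPM in the shallowest library and 1.44 RPM in the deepest, and such limits cover counting error only because reads are not independent molecules.

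**Figure D1:**
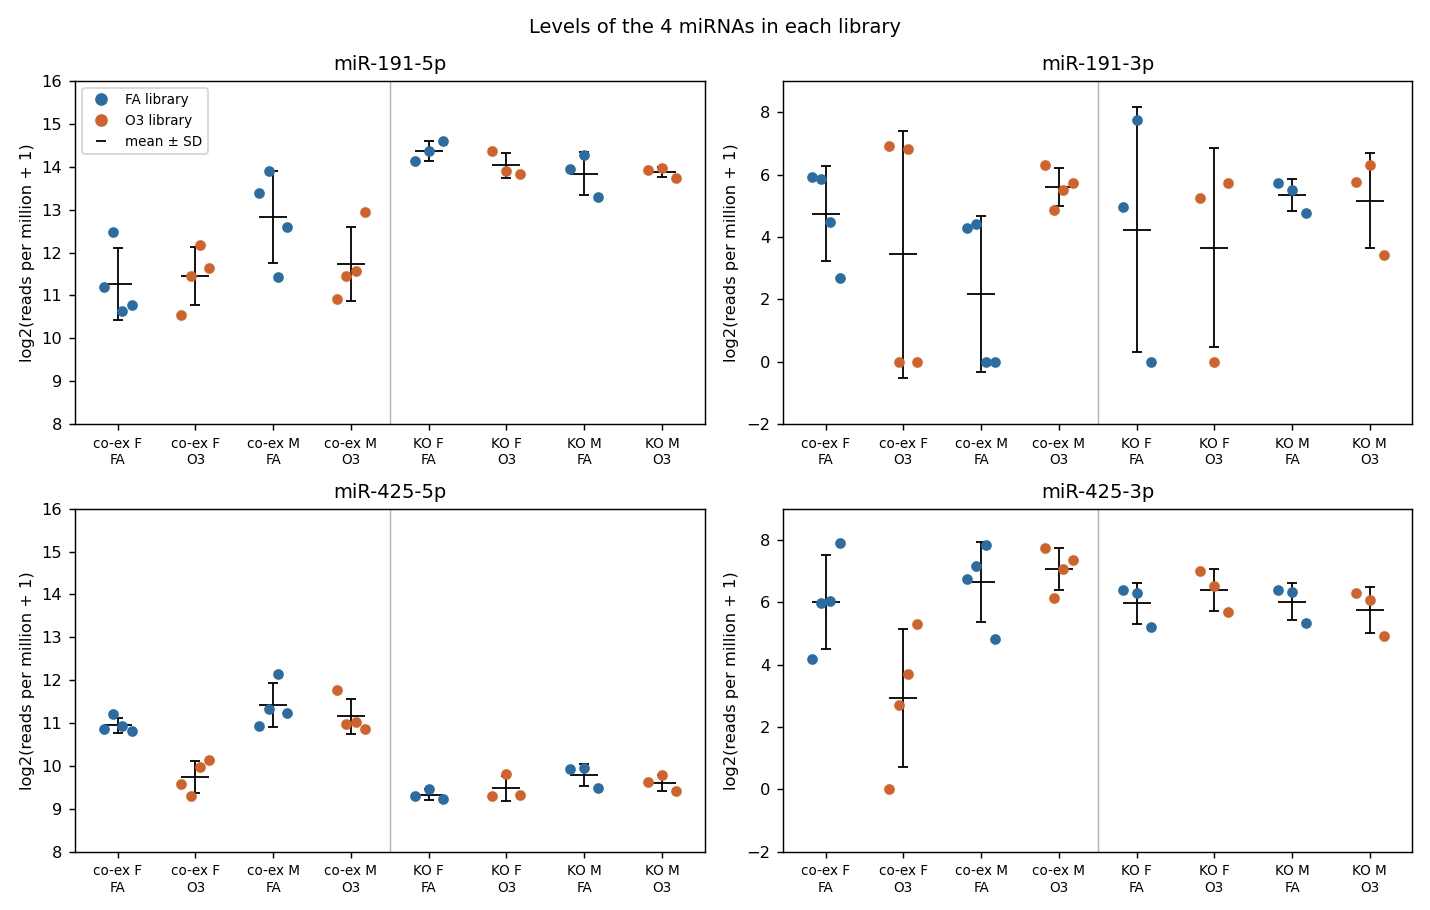
Levels of the 4 miRNAs as log2(RPM + 1) on the y axis, with 1 point per library in the 8 groups of genotype, sex and exposure on the x axis and bars for the mean ± SD. miR-191-5p is higher in most KO libraries, miR-425-5p is higher in most co-ex libraries, and the 3p arms reach 0 in some libraries.

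Ordered by mean RPM, the groups for miR-191-5p ran from KO females after FA (21309 ± 3443, SD, n = 3) and after O3 (17000 ± 3617, SD, n = 3), through KO males after FA (15262 ± 4963, SD, n = 3) and after O3 (15051 ± 1219, SD, n = 3), to the co-ex groups. Co-ex males had 8734 ± 5426 RPM after FA and 3922 ± 2674 after O3 (SD, n = 4 each). Co-ex females had 3035 ± 1302 RPM after O3 and 2832 ± 1918 after FA (SD, n = 4 each). All neighbours in this order had overlapping libraries.

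For miR-425-5p the order began with co-ex males after FA (2875 ± 1135 RPM), co-ex males after O3 (2360 ± 754) and co-ex females after FA (1991 ± 251), each SD with n = 4. Co-ex females after O3 (881 ± 223 RPM, SD, n = 4) stood apart from the other co-ex groups and lay among the KO groups, which had means of 646 to 894 RPM. The only neighbours in this order whose libraries did not overlap were co-ex females after FA and KO males after FA. For both 3p arms all neighbouring groups overlapped.

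The levels of the 5p arms differed between the genotypes in opposite directions. With edgeR (quasi-likelihood, recovered reads, TMM scaling over all 28 libraries), miR-191-5p was lower in co-ex than in KO by a log2 difference of -2.28 (adjusted p = 1.03e-06) and miR-425-5p was higher by 1.02 (adjusted p = 0.000116). These 2 of the 4 miRNAs were called at an adjusted p under 0.1, against 43.6% of all 303 miRNAs tested (22.1% lower and 21.5% higher in co-ex). With each library left out in turn, the log2 differences stayed between -2.43 and -2.15 for miR-191-5p and between 0.98 and 1.15 for miR-425-5p. By size, the difference of miR-191-5p was number 35 and that of miR-425-5p number 117 of the 303. miR-191-3p (-0.76, adjusted p = 0.421) and miR-425-3p (-0.19, adjusted p = 0.765) were not called by edgeR. In females after FA the epithelial miRNAs summed to 12511 to 31722 RPM in co-ex and 1685 to 4503 RPM in KO. The genotypes overlapped in the other groups of sex and exposure, with the lower median in co-ex for males after O3 (8832 against 21665 RPM). Red cell miRNAs (4 names, 2 listed in co-ex males and 3 in the other tables) were lower in co-ex in males after FA. They summed there to 993 to 4461 RPM in co-ex and 16129 to 67930 RPM in KO. In females after O3 they summed to 2833 to 4284 RPM in co-ex and 4335 to 23839 RPM in KO. The genotypes overlapped in females after FA and in males after O3. The part of the epithelial and red cell sums in the genotype differences was not tested.

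Between the sexes, 3 of the 4 miRNAs were higher in males than in females in co-ex, against 17.5% of all 303 miRNAs tested (31.4% in either direction). The log2 differences, males minus females averaged over FA and O3, were 1.18 for miR-191-5p (adjusted p = 0.0238, edgeR), 1.12 for miR-425-5p (adjusted p = 0.00114, edgeR) and 1.96 for miR-425-3p (adjusted p = 0.0160, edgeR). For miR-191-5p the means were 8734 RPM in males and 2832 RPM in females after FA, and 3922 and 3035 RPM after O3. Its libraries of the sexes overlapped after either exposure. For miR-425-5p the means were 2875 RPM in males and 1991 RPM in females after FA, and 2360 and 881 RPM after O3. For miR-425-3p they were 126 and 94.7 RPM after FA, and 144 and 14.0 RPM after O3, where females had 0 to 10 reads. Libraries of the sexes overlapped after FA but not after O3 for both arms of miR-425. The exposures were not tested apart. miR-191-3p gave -0.63 (adjusted p = 0.689, edgeR). In KO, 0 of the 4 were called between the sexes by edgeR, against 0.66% of all tested, and the log2 differences ranged from -0.25 to 0.38, the smallest unadjusted p being 0.179. A difference between the genotypes in the sex difference was not tested. The co-ex males and co-ex females had separate runs of library codes. In co-ex, sex thus cannot be told apart from anything else that differed between the runs. The co-ex groups of males also had more reads (medians of 336558 and 408363 after FA and O3, against 149548 and 214304 in females) and lower sums of the epithelial miRNAs (medians of 7989 and 8832 RPM, against 24312 and 37042), and the part of these in the sex differences was not tested.

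The ratio of the hairpins within a library, which needs no size factor, separated the genotypes. miR-191-5p had 2.59 ± 1.80 reads per read of miR-425-5p in co-ex (SD, n = 16, range 0.558 to 5.94) and 23.5 ± 8.17 in KO (SD, n = 12, range 14.0 to 41.2). Every KO library lay above every co-ex library. A ratio of reads of different miRNAs is not a ratio of molecules, so it is read only as a comparison between libraries. Taken within sex and exposure, the difference in log2 of the ratio, co-ex minus KO, was -3.48, which is 11.1-fold (permutation test over libraries, 2-sided, 100000 resamples, p = 1e-05, the smallest they can give). Benjamini-Hochberg adjustment over the 9 comparisons of 3 ratios by genotype, sex and exposure gave 9e-05 for this permutation test, and the difference was -3.60 to -3.30 with each library left out in turn.

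The separation held in each sex and exposure. In females after FA the ratio was 33.2 ± 6.91 in KO (SD, n = 3) and 1.36 ± 0.721 in co-ex (SD, n = 4), and in females after O3 it was 24.5 ± 8.41 and 3.47 ± 1.31. In males after FA it was 16.8 ± 3.15 in KO and 3.63 ± 2.50 in co-ex, and in males after O3 it was 19.3 ± 1.06 and 1.91 ± 1.59. The KO mean was thus 4.62 to 24.4 times the co-ex mean. The genotypes also stood apart within a low and a high range of depth, which they did not fill alike. Among libraries under 200000 reads, 7 co-ex libraries had ratios of 0.611 to 4.48, while the 1 KO library (111080 reads) had 17.1. Among those over 400000 reads, 5 co-ex libraries (430018 to 891030 reads) had 1.40 to 5.94. The 11 KO libraries there were deeper in part (593136 to 2082034 reads) and had 14.0 to 41.2. The part of depth in the genotype difference was not tested.

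**Figure D2:**
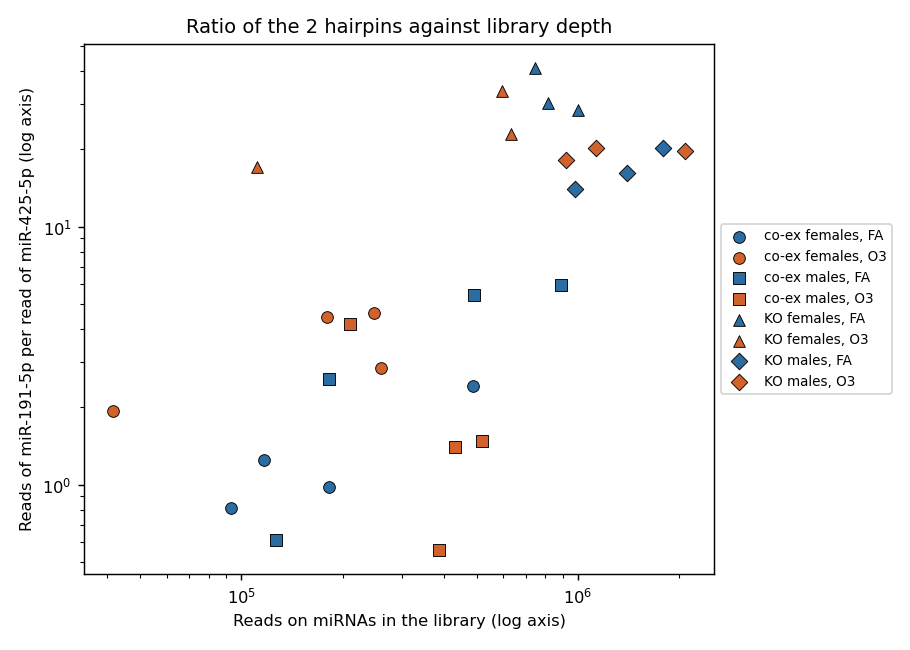
Reads of miR-191-5p per read of miR-425-5p (y, log axis) against the reads on miRNAs of the library (x, log axis), with 1 point per library, shapes for genotype and sex and colours for exposure. All KO libraries lie at 14.0 or above and all co-ex libraries at 5.94 or below, also where their depths overlap.

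Within a table the hairpins did not rise and fall together in a way that held. The correlation of log2(normalised value + 1) of miR-191-5p with miR-425-5p was r = 0.11 in co-ex females (rho = 0.14, n = 8), -0.48 in co-ex males (rho = -0.43, n = 8), -0.070 in KO females (rho = 0.029, n = 6) and 0.74 in KO males (rho = 0.60, n = 6). The exact permutation p-values were 0.781, 0.222, 0.863 and 0.0917 for r, with adjusted values of 0.863, 0.445, 0.863 and 0.367 over the 4 tables. For rho the exact permutation p-values were 0.752, 0.299, 1 and 0.242, with adjusted values of 1, 0.598, 1 and 0.598. Without the 2 libraries farthest from the median of miR-425-5p, r changed sign in all 4 tables, so its sign depended on the libraries kept. With values taken as deviations from the FA and O3 means, r was 0.58 in co-ex females and -0.68 in co-ex males. On that scale it was -0.26 in KO females and 0.81 in KO males, and these values were not tested.

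As deviations from the group means over the 28 libraries, and as a description only, miR-191-5p had r = -0.20 with miR-425-5p, which was place 168 of 229 miRNAs. The miRNAs most like miR-191-5p were miR-29a-3p (r = 0.84), miR-24-2-5p (0.79) and miR-16-5p (0.75). Those most like miR-425-5p were miR-181a-5p (r = 0.63), miR-223-3p (0.62), an abundant myeloid miRNA, and miR-652-3p (0.55). The arms of miR-425 had r = 0.51, with the 3p arm in place 5 of 229 for the 5p arm, and the arms of miR-191 had r = 0.27. Points of 1 library share its depth and scaling.

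After O3, 0 of the 4 miRNAs passed the threshold in any of the 4 tables by limma on log2(normalised value + 1), at an adjusted p under 0.1. All 4 passed the filter on low values in each table. The share of all tested miRNAs called was 0.369% of 271 (co-ex females), 0% of 312 (co-ex males, 11 at an unadjusted p under 0.05), 13.2% of 319 (KO females) and 0.909% of 440 (KO males). With each library left out in turn the number called was 25 to 52 in KO females, where it had been 42. In KO males it was 86 of 479 without FA replicate 3, against 4 of 440 with all libraries and 0 to 2 without any other library. At an unadjusted p under 0.05 there was 1 of the 4 in co-ex females (5.9% of all tested), 1 in co-ex males (3.53%), 0 in KO females (25.7%) and 0 in KO males (7.27%) by limma. Separate ranges of FA and O3 were seen for 1 of the 4 in co-ex females (4.06% of all tested), 1 in co-ex males (2.88%), 0 in KO females (31.3%) and 1 in KO males (12.7%). On the recovered reads, edgeR called 0 of 4 in each table (0.369%, 0%, 11.3% and 0.455% of all tested, in the same order), and so did DESeq2 (0.375%, 0%, 19.6% and 3.69%). The 1 added before taking logs weighs most on low miRNAs. For miR-191-3p in co-ex males the log2 fold change was 2.66 by limma and 4.33 with 0.1 added in place of 1. On the recovered reads it was 2.04 with edgeR and 2.14 with DESeq2.

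The median log2 fold change of the 4 miRNAs was -0.75 in co-ex females, 0.17 in co-ex males, -0.29 in KO females and -0.43 in KO males. Over all tested miRNAs the medians were -0.16, 0.18, 0.061 and -0.038 in the same order. Of the 4, 3 had values below 0 in co-ex females, 2 in co-ex males, 3 in KO females and 4 in KO males, where scaling to library totals took miR-425-5p in KO females (0.14) and miR-191-5p in KO males (0.032) above 0.

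**Figure D3:**
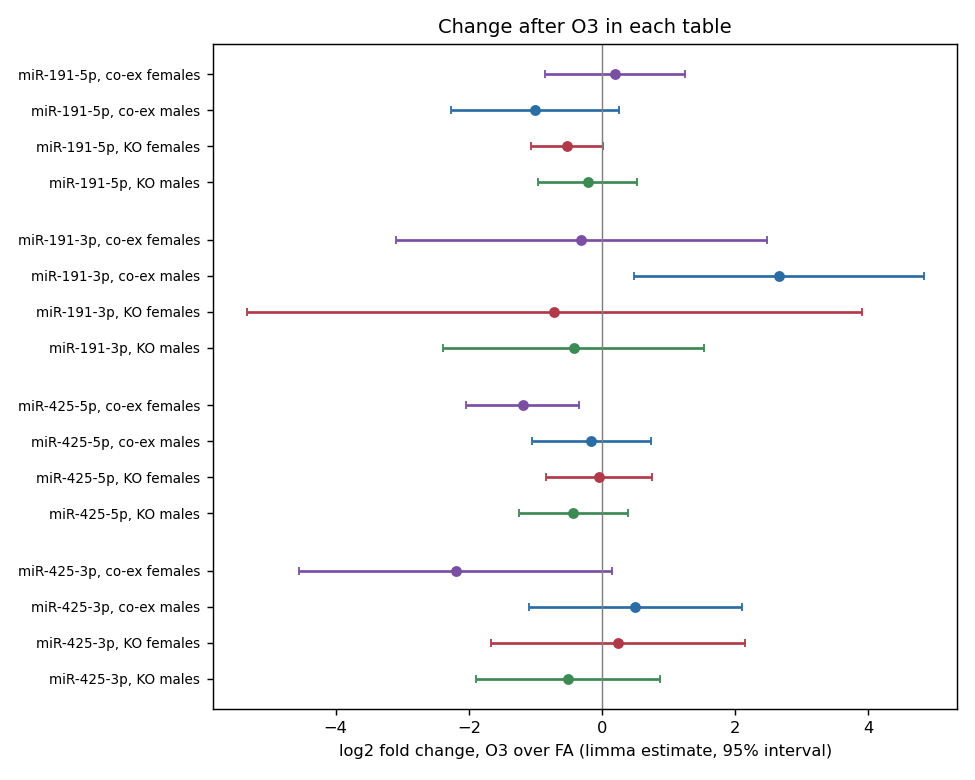
Log2 fold changes of O3 over FA with 95% intervals (x) from limma for each of the 4 miRNAs in each table (y). The intervals of miR-425-5p in co-ex females and of miR-191-3p in co-ex males leave out 0, and neither passed the adjusted threshold.

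miR-191-5p, the arm used as a reference in other settings, gave no call after O3. In co-ex females it had 357, 959, 258 and 248 normalised units after FA and 249, 435, 684 and 512 after O3, and the groups overlapped throughout (log2 fold change 0.20, SE 0.49, adjusted p = 0.918, limma). In co-ex males it had 4101, 5081, 954 and 1657 units after FA and 688, 1035, 1142 and 2505 after O3. FA replicates 1 and 2 were above all O3 libraries and FA replicates 3 and 4 lay among them, and the difference was not called (-1.004, SE 0.58, 95% interval -2.27 to 0.26, adjusted p = 0.944, limma).

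In KO females miR-191-5p had 10119, 12677 and 12875 units after FA and 10647, 7348 and 7103 after O3. Only O3 replicate 1 reached the FA range, and the log2 fold change was -0.52 (SE 0.24, 95% interval -1.07 to 0.019, adjusted p = 0.208, limma). Without O3 replicate 1 it was -0.71 and passed the threshold (adjusted p = 0.0907, limma), so the call depends on this library. In that fit 52 of 348 miRNAs were called (14.9%), the most of any fit of this table with a library left out. Scaled to library totals, with all libraries, the log2 fold change was -0.33 (adjusted p = 0.462, limma). In the same table the epithelial miRNAs summed to 1685 to 4503 RPM after FA, with miR-34b-5p at 0 in all 3 libraries, and to 20918 to 36352 RPM after O3, and their part in the result was not tested. In KO males miR-191-5p had 22410, 26488 and 14733 units after FA and 18154, 18459 and 16747 after O3, with the O3 libraries inside the FA range (-0.21, SE 0.31, adjusted p = 0.967, limma). Only FA replicate 3 lay below the O3 libraries, and without it the log2 fold change was -0.46 (SE 0.22, unadjusted p = 0.0568, adjusted p = 0.227, limma). The epithelial miRNAs summed to 28150 RPM in that library, against 2166 and 2648 RPM in FA replicates 1 and 2 and 21548 to 27800 RPM after O3, and their part in the result was not tested.

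miR-425-5p had lower values after O3 in co-ex females. It had 286, 398, 320 and 253 units after FA (314 ± 62.1, SD, n = 4) and 129, 97.1, 147 and 181 after O3 (138 ± 35.0, SD, n = 4). The highest O3 library lay below the lowest FA library. The log2 fold change was -1.19 (SE 0.40, 95% interval -2.04 to -0.34), with the 4th smallest p of the table (unadjusted p = 0.00952, adjusted p = 0.556, limma), so it was not called. It was -1.33 to -1.03 with each library left out in turn. Red cell miRNAs moved in the same table, summing to 12712 to 137286 RPM after FA and 2833 to 4284 RPM after O3, with 3 of 4 names listed and none at 0 throughout a group. The median sums after FA and O3 were 77327 and 155572 RPM for the myeloid miRNAs and 24312 and 37042 RPM for the epithelial miRNAs, with overlapping libraries. The part of these lists in the lower miR-425-5p was not tested.

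In the other tables miR-425-5p had smaller differences. In co-ex males it had 758, 855, 1561 and 645 units after FA and 1232, 740, 772 and 596 after O3, and the groups overlapped (-0.16, SE 0.41, adjusted p = 0.944, limma). In KO females it had 356, 420 and 313 units after FA and 317, 431 and 311 after O3 (-0.047, SE 0.35, adjusted p = 0.971, limma). The means were 363 and 353 units, and the 95% interval of the log2 fold change was -0.84 to 0.75. In KO males it had 1391, 1310 and 1049 units after FA and 921, 1020 and 834 after O3, so the O3 libraries were all below the FA libraries. That difference was not called (-0.43, SE 0.35, adjusted p = 0.952, limma), nor was it without FA replicate 3 (-0.55, adjusted p = 0.198, limma).

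miR-191-3p, the minor arm, had the smallest p of all 312 miRNAs in co-ex males and was still not called. It had 7.05, 6.72, 0 and 0 units after FA, from 9, 18, 0 and 0 reads, and 27.4, 10.3, 16.6 and 16.7 units after O3, from 30, 12, 23 and 11 reads. Every O3 library lay above every FA library, also when the zeros were set at the limits of 8.17 and 4.38 units that 3 reads would give there. The log2 fold change was 2.66 (SE 0.99, 95% interval 0.49 to 4.83, unadjusted p = 0.0206, adjusted p = 0.944, limma).

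In the other tables miR-191-3p had wide intervals. In co-ex females it had 9.20, 9.68, 3.49 and 0.776 units after FA and 20.1, 0, 16.6 and 0 after O3 (-0.31, SE 1.30, adjusted p = 0.969, limma). This estimate changed sign to 0.50 with edgeR and 0.61 with DESeq2 on the recovered reads. In KO females it had 16.9, 127 and 0 units after FA and 18.7, 0 and 25.5 after O3 (-0.71, SE 2.02), and in KO males 74.2, 59.5 and 38.8 after FA and 62.7, 90.2 and 11.9 after O3 (-0.42, SE 0.83), with adjusted p-values of 0.888 and 0.967 by limma.

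miR-425-3p in co-ex females had lower values after O3, like its 5p arm. It had 2, 30, 6 and 43 reads after FA and 0, 1, 3 and 10 after O3, that is 2.63, 10.4, 10.5 and 33.4 units against 0, 0.859, 1.77 and 6.19 units. The groups overlapped and the difference was not called (-2.19, SE 1.10, 95% interval -4.55 to 0.16, adjusted p = 0.778, limma). In co-ex males it had 40.7, 47.4, 79.0 and 7.31 units after FA and 75.0, 25.7, 49.7 and 51.6 after O3 (0.50, SE 0.73, adjusted p = 0.944, limma).

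In the KO tables miR-425-3p had 47.4, 46.1 and 18.9 units after FA and 64.5, 43.1 and 24.7 after O3 in females (0.24, SE 0.83, adjusted p = 0.922, limma). In KO males it had 119, 105 and 58.2 units after FA and 90.9, 76.4 and 35.7 after O3 (-0.51, SE 0.59, adjusted p = 0.952, limma). All these groups overlapped.

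The response to O3 did not differ between sexes or genotypes for any of the 4 miRNAs at an adjusted p under 0.1 by limma, and the intervals were wide. All 4 were tested in each of 4 comparisons of responses, in which 0% of 249 miRNAs (co-ex males against co-ex females), 0% of 309 (KO males against KO females), 8.71% of 241 (co-ex females against KO females, 21 called, and 9 to 31 with each library left out in turn) and 0% of 305 (co-ex males against KO males) were called. For miR-425-5p, the response in co-ex females minus that in KO females was -1.14 on the log2 scale (95% interval -2.24 to -0.048, unadjusted p = 0.0418, adjusted p = 0.247, limma). For miR-191-3p, co-ex males minus KO males gave 3.09 (0.28 to 5.89, unadjusted p = 0.0335, adjusted p = 0.949, limma). For miR-425-3p, co-ex males minus co-ex females gave 2.70 (0.091 to 5.30, unadjusted p = 0.0433, adjusted p = 0.968, limma). The other 13 differences had intervals that held 0, and for miR-191-5p they ran from -1.20 to 0.72.

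Within each hairpin the 5p arm predominated. Over all co-ex libraries, 174 of 31768 reads of miR-191 were 3p (0.548%), and over all KO libraries the 3p share was 0.304%. For miR-425 the 3p share was 4.74% in co-ex and 8.10% in KO. By library the 3p share of miR-191 was 1.39 ± 1.96% in co-ex (SD, n = 16, range 0 to 7.46) and 0.284 ± 0.269% in KO (SD, n = 12, range 0 to 0.995), and that of miR-425 was 3.94 ± 3.06% in co-ex (SD, n = 16, range 0 to 11.7) and 8.44 ± 3.40% in KO (SD, n = 12, range 4.10 to 16.9).

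Over all libraries the arm ratios differed between the genotypes, in opposite directions for the hairpins. Log2 of 5p over 3p, on normalised values + 1, differed by -2.10, co-ex minus KO, for miR-191 (p = 0.01077, adjusted p = 0.0323) and by 1.33 for miR-425 (p = 0.00151, adjusted p = 0.00680), by the same 2-sided permutation test within sex and exposure. The libraries of the genotypes overlapped for both. These ratios contain the 5p levels, which differed between the genotypes by -2.28 for miR-191 and 1.02 for miR-425 on the log2 scale. The 3p levels differed by -0.76 and -0.19 and were not called by edgeR. The arm ratios are thus not a result apart from the 5p levels, and a change in the choice of arm was not tested. For miR-191 the direction was not the same in each sex and exposure. The difference was -3.65 in females after FA, -3.34 in females after O3 and -2.65 in males after O3, but 1.23 in males after FA. There the observed 3p share was 0 to 0.172% in co-ex and at least 0.224% in KO. Co-ex replicates 3 and 4 had 0 of 350 and 0 of 1134 reads on the 3p arm, which allows up to 0.857% and 0.265%. These limits lie above the lowest KO share, so a separation of the genotypes is not established there. For miR-425 the 4 differences ran from 0.21 to 2.73. For miR-191 the call also depends on the value added for 3p counts of 0, since with 0.5 added to each read count, which involves no size factor, the difference was -1.90 and its permutation adjusted p was 0.116. For miR-425 the same change gave 1.35 and a permutation adjusted p of 0.00590. No arm ratio or hairpin ratio was called for exposure or sex over all libraries, where the adjusted permutation p was 0.691 or more.

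The precision of a single library was limited by few 3p reads. In the shallowest library (co-ex females after O3, replicate 1), 5 of 67 reads of miR-191 were 3p (7.46%, 95% Wilson interval 3.23 to 16.3%), and 0 of 32 reads of miR-425, which allows a share of up to 9.38%. In co-ex females after O3, replicates 2 and 4 had 0 of 506 and 0 of 828 reads of miR-191 on the 3p arm, which allows up to 0.593% and 0.362%. In KO females after FA, replicate 3 had 0 of 18437, which allows up to 0.0163%, while replicate 2 had 174 of 17483 (0.995%, 0.858 to 1.15%). The last pair of libraries of 1 group thus differed by far more than counting error.

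The share of the 3p arm of miR-191 was higher after O3 in co-ex males, by a difference that did not pass correction for the number of tests. The 3p share was 0.172, 0.132, 0 and 0% after FA, from 5243, 13631, 350 and 1134 reads of the hairpin, and 3.84, 0.982, 1.43 and 0.661% after O3, from 782, 1222, 1608 and 1663 reads. The share allowed by 0 reads was 0.857% and 0.265% in FA replicates 3 and 4, and the former limit lies above O3 replicate 4. Log2 of 5p over 3p was 9.74 ± 0.739 after FA and 6.07 ± 1.09 after O3 (SD, n = 4 each), a difference of -3.66, and the groups did not overlap (exact permutation test, 2-sided, p = 0.0286, the smallest that 70 relabellings allow, adjusted p = 0.343 over 12 comparisons). With that floor a single difference could not reach an adjusted p under 0.1 over 12 comparisons, so the correction cannot decide it.

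In the other 3 tables the arm ratio of miR-191 differed by 0.19 to 0.51 and that of miR-425 by -0.28 to 1.00 between O3 and FA, with exact permutation p-values of 0.314 or more. In co-ex males the arms of miR-425 differed by -0.66 (exact permutation p = 0.314). The KO tables, with 3 libraries per group, cannot give an exact permutation p under 0.1. The hairpin ratio had its largest difference after O3 in co-ex females, where log2 of miR-191-5p over miR-425-5p was 0.31 ± 0.69 after FA and 1.70 ± 0.60 after O3 (SD, n = 4 each, difference 1.39, exact permutation p = 0.0571, adjusted p = 0.343). The reads ratios behind it were 1.25, 2.41, 0.809 and 0.979 after FA and 1.94, 4.48, 4.65 and 2.84 after O3, and FA replicate 2 lay among the O3 libraries.

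**Figure D4:**
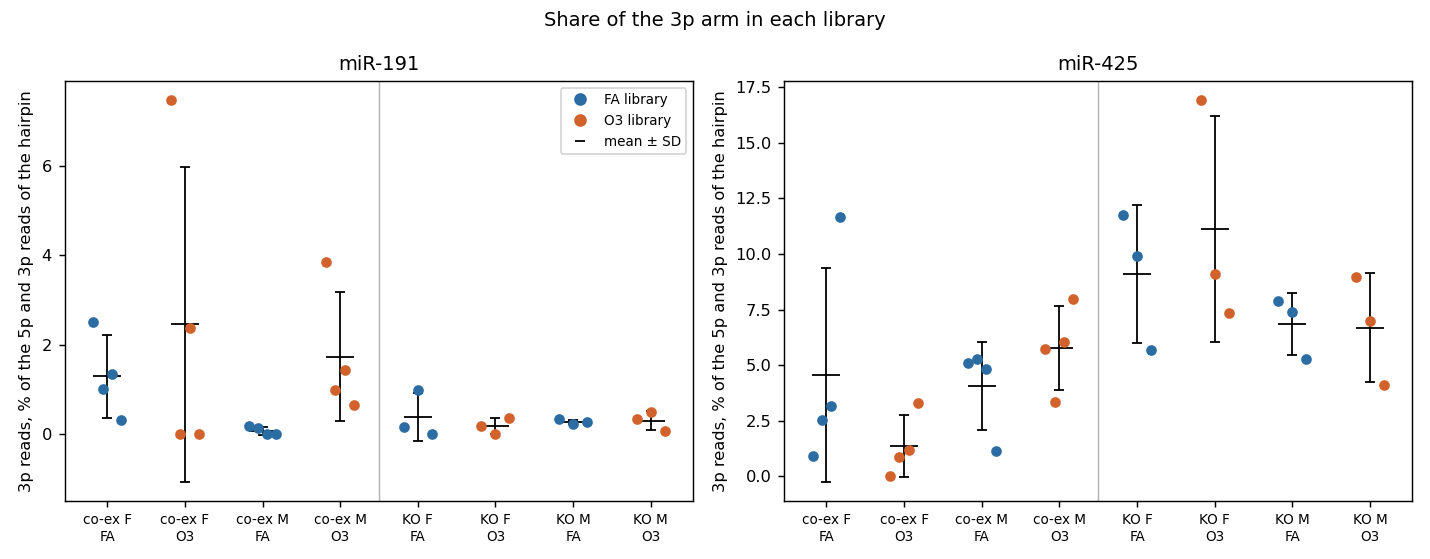
Share of 3p reads among the 5p and 3p reads of each hairpin (y, percent), with 1 point per library in the 8 groups (x) and bars for the mean ± SD. The share of miR-191 is under 1% in all KO libraries and reaches 7.46% in co-ex, and that of miR-425 is 4.10% or more in all KO libraries.

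miR-191-5p was set beside 10 miRNAs that are also used as references in small RNA PCR (miR-103-3p, miR-16-5p, miR-93-5p, miR-25-3p, miR-423-5p, miR-423-3p, miR-30e-5p, let-7a-5p, miR-26a-5p and miR-24-3p). After O3, 0 of 10 were called in co-ex females, co-ex males and KO males by limma, with 0 at an unadjusted p under 0.05 in each. In KO females 2 of 10 were called, both lower: let-7a-5p (-1.11, adjusted p = 0.0126, limma) and miR-423-5p (-2.24, adjusted p = 0.0148, limma), which is 20% against 13.2% of all tested. The medians of the 10 log2 fold changes were -0.0099, -0.13, -0.30 and -0.33 in co-ex females, co-ex males, KO females and KO males, where miR-191-5p had 0.20, -1.004, -0.52 and -0.21.

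The spread of miR-191-5p within groups, as the residual SD of log2(normalised value + 1), was 0.77 in co-ex females and 0.97 in co-ex males, against 0.27 in KO females and 0.31 in KO males. In co-ex females 7 of the 10 reference miRNAs had a smaller residual SD and in co-ex males 9 of 10 did, while in KO females 3 and in KO males 5 did. The residual SD of miR-425-5p was smaller, at 0.33, 0.50, 0.24 and 0.18 in the same order of tables. In co-ex females it was below that of each of the 10 reference miRNAs and lower than that of all but 2.95% of the miRNAs tested.

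In co-ex females the level of miR-191-5p moved with the depth of the library. Log2 RPM of miR-191-5p had r = 0.86 with log2 of the reads on miRNAs over the 8 libraries (exact permutation p = 0.00407, adjusted p = 0.0488 over 12 relations) and rho = 0.90 (exact permutation p = 0.00456, adjusted p = 0.0548). Without the 2 libraries farthest from the median depth r was 0.76. The other 11 relations, of miR-191-5p, miR-425-5p and their ratio with depth in the 4 tables, had adjusted p-values of 0.422 or more for r by exact permutation. Within the FA libraries of co-ex females, replicate 2 had the most reads (488993) and the most miR-191-5p (5669 RPM), and the other 3 libraries had 93520 to 182207 reads and 1583 to 2327 RPM.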

How the data were processed

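Per the paper, the authors filtered reads with CASAVA 1.8, trimmed them with the FASTX-Toolkit, removed adapters, and aligned and counted miRNAs with Chimira. The versions of FASTX-Toolkit and Chimira and the build are not given in the sources used here. The authors tested for differences with edgeR and TCC 1.14.0. The deposited library columns hold a normalized signal, read counts divided by a size factor per library, in 4 tables normalized separately. Each of the 12048 values equals a whole number of reads (within 0.01) once multiplied by its library's size factor, so reads were recovered. The deposited log2 fold changes, p-values, q-values and rank score of the authors were not used.

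O3 was compared with FA within each table by limma 3.58.1 (R 4.3.3, trended prior) on log2(value + 1). A miRNA entered the fit if it reached 5 in a number of libraries equal to the smaller group, with Benjamini-Hochberg adjustment over all tested and a threshold of 0.1. Levels across tables were tested with edgeR 4.0.16 (quasi-likelihood, TMM) on recovered reads of all 28 libraries. Ratios were tested by permuting libraries, within sex and exposure where groups were joined, with 100000 resamples, or exactly. Likeness was Pearson r of deviations from group means among the 229 miRNAs that passed the filter in every table. Alternatives were DESeq2 1.42.0, edgeR on each table, library totals, pseudocounts of 0.1 or of 0.5 reads, no filter, a threshold of 0.05, medians, the replicate number as a block and each library left out. scipy 1.17.1, numpy 2.4.6, pandas 2.3.3, matplotlib 3.10.9 and Python 3.11.15 were used, and the tests were tried on simulated data.

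The 4 miRNAs, the named lists and the tests were chosen with earlier results of these data known. Named are the 4, the 3 most like each 5p arm, and 10 reference miRNAs. The relation with depth was added after the data were seen. Libraries of the same replicate number were not treated as pairs in the main tests. The correlation of their deviations was over 0.1 in 3 of 14 pairs (range -0.28 to 0.23). Such correlations cannot show whether libraries of the same number were handled together.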

Additional observations from a re-analysis of the deposited data

Results flagged for a closer look

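Among 28 sets of 4 libraries of 1 group that were examined (each miRNA and each ratio), 2 had a library far from the other 3, at a gap over 0.829 of the range of the group. Chance flags about 1 in 20 such sets. The first was miR-191-5p in co-ex females after FA, where replicate 2 had 958.778 normalised units (gap 0.846 of the range) and was also the deepest library of its group. The second was log2 of 5p over 3p of miR-425 in co-ex males after FA, where replicate 4 had 6.28 (gap 0.933 of the range), from 5 reads of the 3p arm among 446 of the hairpin. The causes were not tested.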

How the results depend on the processing

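Of 299 values under alternatives other than a left-out library, 283 kept direction and side of the threshold, 15 changed sign and 1 lost its call. The lost call was the genotype difference in the arms of miR-191 with 0.5 added to reads, at -1.90. None of the differences that changed sign had been called. For O3 against FA these were miR-191-3p in co-ex females (0.50 with edgeR, 0.61 with DESeq2), and with library totals miR-425-5p in KO females (0.14) and miR-191-5p in KO males (0.032). The others were the miR-191-3p response of co-ex females minus KO females with a pseudocount of 0.1 (-0.88), miR-425-3p in co-ex minus KO with library totals (0.082), the arms of miR-191 between sexes with 0.5 added (-0.13), and between O3 and FA in KO females with 0.5 added (-0.68) or medians (-0.0604) and in KO males with medians (-0.38), and the arms of miR-425 in KO females with medians (0.13). Without the 2 farthest libraries, the correlation of miR-191-5p with miR-425-5p was -0.39 in co-ex females, 0.27 in co-ex males, 0.098 in KO females and -0.26 in KO males. The causes were not tested.

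Of 1176 values with a library left out, 60 changed sign and 2 gained a call, both from miR-191-5p in KO females without O3 replicate 1 (0 to 1 of 4 called after O3, log2 fold change -0.71 to -0.42). Ranges that crossed 0 for O3 against FA were, in co-ex females, -0.014 to 0.64 for miR-191-5p and -1.06 to 0.40 for miR-191-3p; in co-ex males, -0.36 to 0.11 for miR-425-5p and -0.18 to 0.91 for miR-425-3p; in KO females, -2.58 to 0.93 for miR-191-3p, -0.20 to 0.063 for miR-425-5p and -0.18 to 0.59 for miR-425-3p; and in KO males, -0.98 to 0.43 for miR-191-3p. For responses of miR-191-3p they were -1.35 to 2.15 (KO males minus KO females) and -1.23 to 2.27 (co-ex females minus KO females). For levels of KO males minus females they were -0.33 to 0.065 for miR-191-5p, -0.45 to 1.23 for miR-191-3p and -0.38 to 0.17 for miR-425-3p. For 5p over 3p of miR-191 after O3 they were -0.28 to 1.53 in co-ex females, -1.40 to 2.11 in KO females and -0.60 to 0.74 in KO males, and for the sexes -0.29 to 0.59. For 5p over 3p of miR-425 after O3 they were -0.56 to 0.11 in KO females, -0.25 to 0.34 in KO males and -0.12 to 0.16 over all libraries, and for miR-191-5p over miR-425-5p after O3 over all libraries -0.11 to 0.19.

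With the replicate number as a block, 40 of 40 values kept direction and call, and 0 of 4 miRNAs were called after O3 in each table, as without it. The depth of co-ex libraries limits the 3p arms, and the 3 libraries per KO group limit the exact tests.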
